A study of Mus musculus with 8 samples.

Results

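The regions described here are stretches of the mouse genome that lay inside a gene, away from its start, and carried a peak of histone H3 acetylated at lysine 27 (H3K27ac) in both test tumors and in neither control tumor. They were chosen by that pattern itself: the peaks of 4 breast tumors were joined into 89238 union regions on the autosomes, of which 44944 overlapped the body of a protein-coding gene and no transcription start site (TSS) within 1 kb. Of these intragenic regions, 725 (1.61%) were test-only. The reverse pattern, with peaks in the pair of controls and no test tumor, held for 1692 regions (3.76%), and 13848 regions were shared by all 4 tumors. Presence and absence are therefore a description of how the regions were selected and carry no test. The tumors also differed in the length of their peak lists, with 68404 and 66585 autosomal peaks in control tumors 1 and 2 and 64438 and 58328 in test tumors 1 and 2. With each tumor cut to the same number of its widest peaks, 870 regions were test-only and 1141 control-only.

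All 4 were breast tumors of BALB/c mice that express the polyoma middle T oncogene (PyMT) from the mouse mammary tumor virus promoter and lack Rag1, and with it their own T and B cells. Wild-type CD4+ T cells were injected into every mouse when it was 4 weeks old. The control group (PyMT;Rag1KO) had no further transgene, and the test group (K14-TSLPtg;PyMT;Rag1KO) also expressed thymic stromal lymphopoietin (TSLP) from the keratin 14 promoter. Each group had 2 tumors, collected at terminal size; the titles of the test samples say cyst and those of the controls say tumor. The grade and cell make-up of the single tumors were not given, so group differences in either cannot be told apart from an effect of TSLP. With 2 tumors against 2, the smallest p-value that a permutation of the tumors allows is 0.333, so no permutation test between the groups could pass at 0.05, and the values are given as a description.

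H3K27ac marks active promoters and active enhancers, the distant switches that raise transcription of a gene from outside its start. Many enhancers lie in introns, either of the gene they act on or of a neighbor, so a host gene is the place of a region and not necessarily its target. TSLP is an epithelial cytokine that drives type 2 immune responses of CD4+ T cells. Mammary epithelium can take on luminal, secretory or mesenchymal programs that use different enhancers.

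The test-only regions were about as wide as the control-only regions, and both were much narrower than shared ones. Median width was 419 bp in test-only, 407 bp in control-only and 1693 bp in shared intragenic regions. The 725 regions summed to 384.2 kb. Of them, 453 (62.5%) were under 500 bp, 63 (8.69%) were at least 1 kb and 16 were at least 1.5 kb wide. The median test-only region held 255 bases under peaks in test tumor 1 and 292 bases in test tumor 2, whereas the median peak of these tumors measured 623 bp and 651 bp, and only 21.9% and 25.8% of all their peaks were narrower than these medians. The caller's smallest peak in test tumor 1 was 166 bp. In 87 regions (12%) test tumor 1 had just 166 bases under its peak, the size of 4.44% of all its peaks. The smallest peak of test tumor 2 was 161 bp. In 58 regions (8%) test tumor 2 had just 161 bases under its peak, the size of 4.22% of all its peaks. Peak strength was not part of the lists, and how width relates to strength was not tested.

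The 2 test tumors differed in how far their peaks reached. Since regions were built by joining, each one holds bases under a peak of both tumors, and the median was 181 common bases or 44.7% of the region's width. In all, 579 regions were a single caller peak in each tumor. Peaks were wider in test tumor 2 for 410 regions, wider in test tumor 1 for 312 and equal for 3. They were more than 4 times wider in test tumor 2 for 48 regions and in test tumor 1 for 6. Across the 725 regions, which share the 2 libraries, the bases in the 2 tumors had a Spearman rho of 0.102 and a Pearson r of 0.157 on the log10 scale. Only 38 regions had 500 or more bases in both tumors, and a single one, in Plet1, had 1000 or more in both.

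**Figure D1:**
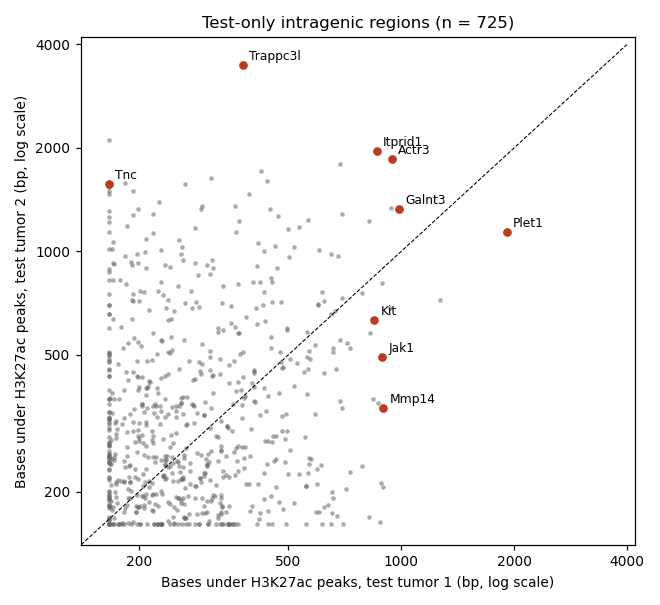
Each point is 1 of the 725 test-only intragenic regions, plotted by the bases it holds under H3K27ac peaks in test tumor 1 (horizontal, bp, log scale) and in test tumor 2 (vertical, bp, log scale); the dashed line marks equal values and red points are regions named in the text. Most points lie under 500 bp in both tumors, and the rows at the left and bottom edges are regions at the smallest peak of 166 bp or 161 bp.

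Sequences of 6 regions are printed from the stretch common to both test tumors, up to 300 bases around its midpoint, because they hold or lack the motifs discussed further on. The first 3 hold the AP-1 motif (TGANTCA), the binding letters of the Fos and Jun factors, whose share differed most between test-only and shared regions. The next 2 hold the STAT motif (TTCNNNGAA), the letters bound by cytokine-activated STAT factors. The last is from the Plet1 region, and its printed stretch holds neither. Capitals mark these 2 motifs and all else is in lower case. The motif shares given further on were counted in the central 300 bp of each region, which can differ from the printed stretch. The Olah match lies outside that window. The letters are the plus strand of the RefSeq reference GRCm38.p6 (mm10), which represents another strain than BALB/c.
Itprid1 (chr6:55873803-55874102): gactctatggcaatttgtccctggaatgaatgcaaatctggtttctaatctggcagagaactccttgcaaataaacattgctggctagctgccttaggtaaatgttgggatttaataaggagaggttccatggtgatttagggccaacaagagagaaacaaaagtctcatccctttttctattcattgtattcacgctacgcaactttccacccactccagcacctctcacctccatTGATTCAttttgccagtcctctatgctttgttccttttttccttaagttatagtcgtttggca
Olah (chr2:3390915-3391140): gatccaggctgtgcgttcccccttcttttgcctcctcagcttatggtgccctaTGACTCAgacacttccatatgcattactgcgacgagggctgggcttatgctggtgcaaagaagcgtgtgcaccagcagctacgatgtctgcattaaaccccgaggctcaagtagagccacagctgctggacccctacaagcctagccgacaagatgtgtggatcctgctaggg
Grb2 (chr11:115706904-115707093): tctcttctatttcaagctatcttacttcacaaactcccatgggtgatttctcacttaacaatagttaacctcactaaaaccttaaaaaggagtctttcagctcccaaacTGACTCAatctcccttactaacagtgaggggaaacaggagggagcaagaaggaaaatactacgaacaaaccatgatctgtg
Jak1 (chr4:101220598-101220802): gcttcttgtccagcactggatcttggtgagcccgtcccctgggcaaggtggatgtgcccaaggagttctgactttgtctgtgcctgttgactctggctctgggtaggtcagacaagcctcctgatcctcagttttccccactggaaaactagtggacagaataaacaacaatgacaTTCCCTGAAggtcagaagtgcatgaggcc
Elmo1 (chr13:20142683-20142982): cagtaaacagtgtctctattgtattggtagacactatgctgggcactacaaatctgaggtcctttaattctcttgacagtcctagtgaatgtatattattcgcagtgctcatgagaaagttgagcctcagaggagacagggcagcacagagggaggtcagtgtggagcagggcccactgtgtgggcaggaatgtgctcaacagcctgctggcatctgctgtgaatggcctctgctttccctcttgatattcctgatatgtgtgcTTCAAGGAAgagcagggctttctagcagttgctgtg
Plet1 (chr9:50504015-50504314): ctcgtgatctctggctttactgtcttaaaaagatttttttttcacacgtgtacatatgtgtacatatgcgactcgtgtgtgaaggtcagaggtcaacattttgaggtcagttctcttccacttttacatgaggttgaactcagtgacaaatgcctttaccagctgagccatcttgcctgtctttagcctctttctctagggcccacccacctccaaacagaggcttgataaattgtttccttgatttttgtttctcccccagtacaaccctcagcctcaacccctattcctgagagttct

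The widest regions sat in genes of varied function. The Plet1 region (chr9:50503225-50505135) was the only one with 1000 or more bases in each, with 1911 bases in test tumor 1, 1142 bases in test tumor 2 and a control peak 372 bp away. Plet1 encodes a surface protein of epithelial progenitor cells, and its body was covered by peaks over 43.6% and 41.4% in control tumors 1 and 2 and over 65.1% and 59.8% in test tumors 1 and 2. With the bases of its 2 test-only regions set aside, which the controls lack by the selection, the values were 43.6% and 41.4% in control and 46.1% and 45.1% in test tumors. The region in Trappc3l, a relative of a vesicle-tethering subunit, was 378 bases in test tumor 1 and 3487 bases in test tumor 2, the widest peak stretch of all 725. The Sept9 region, in a gene for a cytoskeletal GTPase, held 867 and 1966 bases, and the Itprid1 region held 862 and 1964 bases in test tumors 1 and 2. In Mrpl58, a mitochondrial ribosome rescue factor, the values were 687 and 1798 bases. The more even pair was Galnt3, an enzyme that starts mucin-type O-glycosylation, with 988 and 1329 bases, and Sash1, an adaptor of cell signaling, with 939 and 1336 bases. The list of the 10 widest was completed by Actr3 (943 and 1858 bases), Taf4b (166 and 2109 bases) and Osbpl1a (422 and 1715 bases). In 9 of these 10 regions, all but Plet1, the peaks were wider in test tumor 2 than in test tumor 1.

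Some test-only regions stood alone in otherwise peak-free chromatin. In 97 of the 725 regions (13.4%), no tumor had a peak within 10 kb on either side, against 10.3% of control-only, 10.1% of shared and 10.2% of all intragenic regions. Among the 63 regions of at least 1 kb, 13 stood alone in this way. The Actr3 region, over a coding exon of the gene for an Arp2/3 complex subunit that nucleates branched actin, lay 13917 bp from the nearest control peak, 19.9 kb from the Actr3 start. The Tnc region, over a coding exon of the matrix protein tenascin-C, lay 22506 bp from the nearest control peak, and held 166 bases in test tumor 1 and 1571 bases in test tumor 2. Regions at least 1 kb wide overlapped a coding exon in 13 of 63 cases (20.6%), and all test-only regions did in 92 of 725 (12.7%). Of the 97 regions that stood alone, 13 (13.4%) overlapped one. The share was 15.0% of all intragenic regions and 25.5% of the wider shared ones.

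Most test-only regions were close to acetylation that the control tumors had as well. The median gap to the nearest control peak was 1743 bp, and it was 2428 bp to control tumor 1 and 2738 bp to control tumor 2. A control peak lay within 500 bp of 228 regions (31.4%), within 1 kb of 295 (40.7%), within 10 kb of 581 (80.1%) and within 50 kb of 704 (97.1%). Control-only regions lay at a similar distance from test peaks, with a median gap of 2002 bp, 479 (28.3%) within 500 bp and 676 within 1 kb. A region shared by all 4 tumors lay within 10 kb of 474 test-only regions (65.4%). The regions just inside the selection were those of Pus10, 7 bp from a control peak, Elf1 at 9 bp and Mgat4a at 11 bp, with 219 and 339, 563 and 227, and 229 and 427 bases in test tumors 1 and 2. Just outside were regions in Ramp1, Dstyk and Pcbp3, each with 155 bases under a peak of control tumor 1.

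The selection by presence in all tumors of a group also depended on each control tumor. Of the 16308 intragenic regions present in both test tumors, 13848 (84.9%) were in both control tumors, 971 (5.95%) in control tumor 1 alone, 764 (4.68%) in control tumor 2 alone and 725 (4.45%) in neither. Of the 19576 regions present in both control tumors, 3330 (17.0%) were also in test tumor 1 alone and 706 (3.61%) in test tumor 2 alone. Test tumor 1 thus held more of what the control tumors had in common than test tumor 2 did. Without test tumor 2 the selection gave 5597 test-only and 2460 control-only regions. It then asked for a peak in 1 test tumor but in both control tumors, so these counts cannot be compared.

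Peaks covered more of the neighborhood of the test-only regions in the test tumors than in the control tumors. Within 10 kb on either side, peaks covered on average 11.9% and 11.0% of the bases in control tumors 1 and 2, and 13.6% and 13.7% in test tumors 1 and 2. Both test tumors were above both control tumors, with a difference of group means of 2.16 percentage points and an SD of 0.525 over the 4 test-control pairs, which share tumors. Within 50 kb on either side the difference was 1.16 percentage points. Around control-only regions the order turned, at 12.34% and 11.97% in control tumors and 10.1% and 7.30% in test tumors 1 and 2. Around shared regions the groups overlapped, at 14.1% and 13.2% in control tumors and 14.6% and 11.9% in test tumors. Region by region, both test tumors exceeded both control tumors around 200 of the 725 (27.6%) and fell below both around 24 (3.31%). Among all intragenic regions the corresponding shares were 11.5% and 15.9%. Around the 1692 control-only regions the mirror order, both controls above both test tumors, held for 625 (36.9%). Flanks can hold further test-only peaks, and they belong to the same contrast that chose the regions, so these values are a description.

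**Figure D2:**
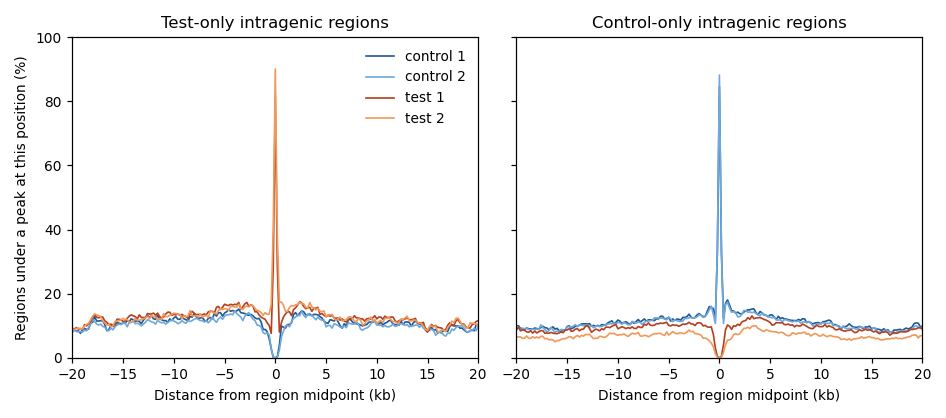
The percent of regions under a peak (vertical) is plotted against the distance from the region's midpoint in kb (horizontal) for each of the 4 tumors, around the 725 test-only regions on the left and the 1692 control-only regions on the right. The drop to 0 at the center of the left panel in the control tumors, and of the right panel in the test tumors, is fixed by the selection. Away from the center the test tumors lie above the control tumors at most positions on the left, with exceptions such as those near 15 kb, and test tumor 2 lies lowest at most positions on the right.

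The regions lay mainly in introns, at distances from the host start like those of other intragenic regions. Of the 725, 579 (79.9%; 95% Wilson interval 76.8 to 82.6%, counting error only) overlapped introns alone, 92 a coding exon, 34 (4.69%) a UTR and 20 (2.76%) another exon. Control-only regions were in introns alone in 83.0%, shared regions in 64.4% and all intragenic regions in 77.0%. The median distance to the host start was 30.8 kb, against 36.8 kb for control-only and 34.8 kb for shared regions. There were 553 regions (76.3%) beyond 10 kb and 158 (21.8%) beyond 100 kb, against 79.4% and 22.7% of all intragenic regions. For 549 regions (75.7%) the nearest gene start was that of the host, against 72.3% of all intragenic regions. A start of another protein-coding transcript, which the selection did not exclude, lay within 1 kb of 43 regions (5.93%). The share was 5.38% of control-only, 12.7% of the wider shared and 7.09% of all intragenic regions. The 5 widest of these 43 lay in Osbpl1a, Aldh1l1, Trim36, Map2 and Pde9a, with 422 and 1715, 217 and 1281, 664 and 672, 453 and 813, and 717 and 541 bases in test tumors 1 and 2. The region in Map2, a neuronal microtubule-associated protein, was 35537 bp from the nearest control peak.

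The 725 regions lay in 623 host genes, 6.89% of the 9046 genes with an intragenic region, and control-only regions lay in 1244 genes (13.8%). Genes with both kinds numbered 122, which is 19.6% of the former and 9.81% of the latter. Host genes were long, with a median of 84.0 kb against 39.2 kb for all genes with an intragenic region, and held a median of 7 intragenic regions against 3. Genes with a control-only region were much the same, with medians of 83.1 kb and 8 intragenic regions. The share of genes with a test-only region went from 1.92% of those with 1 intragenic region to 27.9% of those with 16 or more. The promoter of the host, within 1 kb of its start, carried a peak in all 4 tumors for 484 genes (77.7%) and in none for 101 (16.2%). The corresponding values for all 9046 genes were 67.8% and 22.4%. A promoter peak in both test and neither control tumor was present in 2 hosts, Dixdc1, a Wnt pathway protein, and Smim5, a small membrane protein. Their regions held 474 and 510 bases in Dixdc1 and 328 and 439 bases in Smim5 in test tumors 1 and 2. Over all 9046 genes such promoters numbered 33, so the hosts did not stand out in this respect.

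Most hosts had a single region. There were 533 genes with 1 region, 69 with 2, 14 with 3, 4 with 4, 2 with 5 and 1 with 7. Within 20 kb of one another lay 107 regions in 46 clusters. The largest cluster, 7 regions over 82.0 kb (chr7:144601784-144683737), was in Ano1, which encodes a calcium-activated chloride channel. Test tumors 1 and 2 held 241 and 269, 243 and 563, 500 and 1162, 310 and 1632, 496 and 599, 193 and 752, and 320 and 209 bases in these 7 regions. Each lay in a gap between peaks that the control tumors had, 191 to 1193 bp from the nearest. Peaks covered 29.7% and 25.4% of the Ano1 body in control tumors 1 and 2, and 39.1% and 45.4% in test tumors 1 and 2. With the bases of the 7 regions set aside, coverage was 37.7% and 42.3% in test tumors 1 and 2, and the test tumors still lay above the control tumors without overlap. Ano1 was picked for its number of test-only regions, and its other peaks belong to the same contrast, so these values are a description. Of the 26 other intragenic regions of Ano1, 17 were present in each control tumor, 18 in test tumor 1 and 23 in test tumor 2, 16 were shared and 0 were control-only. The annotated start of Ano1 had no peak in any tumor, and for 6 of the 7 regions the nearest gene start was that of Fadd.

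The other genes with 4 or more regions had smaller or overlapping differences in body coverage. Elmo1, which activates the GTPase Rac together with Dock1, had 5 regions in its introns with 166 and 659, 212 and 187, 589 and 535, 166 and 600, and 242 and 506 bases in test tumors 1 and 2. Its body was covered over 6.24% and 5.60% in the control tumors and over 6.33% and 7.83% in the test tumors, or 6.06% and 7.35% without the 5 regions. Sept9 had 4 regions, and its body coverage was 27.4% and 32.6% in control tumors 1 and 2, 30.1% in test tumor 1 and 45.7% in test tumor 2. The Sept9 groups overlapped, because test tumor 1 lay between the control tumors. Stk39, a kinase that acts on cation-chloride cotransporters such as Slc12a2, had 4 regions and a body coverage of 18.3% and 16.9% in control and 18.8% and 21.4% in test tumors, or 18.3% and 20.6% without the 4 regions. In Elmo1 and Stk39 the groups thus overlapped once the selected bases were set aside. Auts2 had 4 regions and overlapping coverage, at 5.30% and 4.26% in control and 5.16% and 5.76% in test tumors. For 2 further entries the annotation makes the host: Gm20388, with 5 regions, is a span of 4435 kb across several genes, and Fgfr2, with 4 regions, is annotated over 2961 kb. The regions counted for Fgfr2 lay in Tacc2, Lhpp and Fam53b, genes inside that span. In all, 14 of the 725 regions lay only in genes over 1 Mb long.

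**Figure D3:**
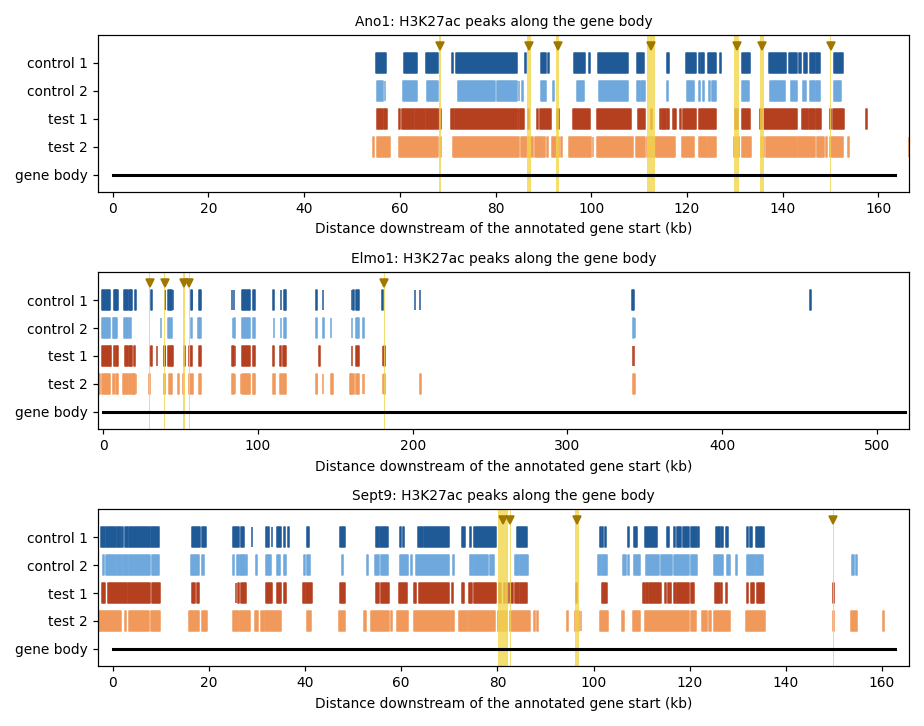
H3K27ac peaks of each of the 4 tumors (rows of bars) are drawn along the bodies of Ano1, Elmo1 and Sept9, with the distance downstream of the annotated gene start in kb on the horizontal axis; triangles and yellow bands mark the test-only regions. In Ano1 the 7 bands lie in gaps between the blocks of peaks of the control tumors, whereas in Sept9 the peaks of test tumor 1 resemble those of the control tumors.

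Genes of the mammary epithelium and of its mesenchymal conversion were examined as lists compiled with earlier results of these data known. Of 47 mammary differentiation genes with an intragenic region, 6 (12.8%) held a test-only region and 1 (2.13%) a control-only one, against 6.89% and 13.8% of all genes. These genes held a median of 3 intragenic regions, as did all genes. Of 70 genes of the list, 51 and 49 had a promoter peak in control tumors 1 and 2, and 49 in each test tumor. The 6 genes were Xdh, a milk fat globule enzyme, Kit, the stem cell factor receptor of luminal progenitors, Folr1, a folate receptor, Olah, the thioesterase that ends the synthesis of medium-chain milk fatty acids, and the transporters Slc34a2 and Slc12a2. Kit had the widest region of this list (chr5:75606670-75607719), with 847 bases in test tumor 1, 631 bases in test tumor 2 and 5232 bp to the nearest control peak. A second Kit region held 200 and 404 bases and was 10992 bp from a control peak. Of the 3 other intragenic regions of Kit, 1 was present in control tumor 1, 0 in control tumor 2 and 2 in each test tumor. Coverage of the Kit body without the selected bases overlapped between the groups, at 4.97% and 3.15% in control and 4.87% and 5.51% in test tumors. Olah had 2 regions with 230 and 549, and 430 and 226 bases, 232 and 203 bp from control peaks. Peaks covered 2.32% and 0.286% of the Olah body in control tumors 1 and 2 and 5.24% and 3.78% in test tumors 1 and 2. With the bases of the 2 regions set aside, the test values were 4.05% and 2.37%, the lower of them next to the 2.32% of control tumor 1. Folr1 held 483 and 461 bases, Slc34a2 261 and 336, Slc12a2 166 and 196, and Xdh 166 and 161, the last at the smallest peak of each tumor.

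Genes of epithelial-mesenchymal transition (EMT) held more control-only than test-only regions, as did genes in general. Of 74 such genes with an intragenic region, 5 (6.76%) held a test-only region and 21 (28.4%) a control-only one. The share with a test-only region was close to the 6.89% of all genes, and the control-only share stood beside 13.8% of all genes. Of 94 genes of the list, 64 and 65 had a promoter peak in control tumors 1 and 2, 60 in test tumor 1 and 47 in test tumor 2, so test tumor 2 was lowest. The 5 were Mmp14, a membrane-bound matrix protease, with 896 and 351 bases in test tumors 1 and 2, the collagen receptor subunit Itga2 with 166 and 1135, Tnc, Qsox1, a secreted sulfhydryl oxidase, with 192 and 301, and Wipf1, an actin regulator, with 252 and 246 bases. In Itga2 and Tnc the peak of test tumor 1 was of the smallest size.

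**Figure D4:**
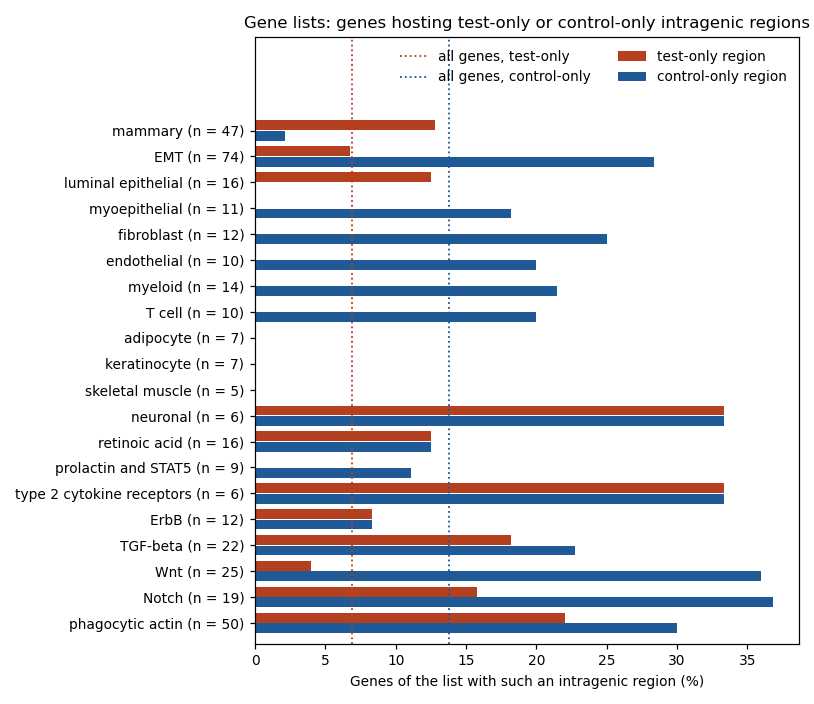
Bars give the percent of a list's genes with an intragenic region (n in brackets) that held a test-only (red) or a control-only (blue) region, and dotted lines give the same percent over all 9046 genes, 6.89% and 13.8%. The list of mast cells and eosinophils, with 2 such genes, is left out. Red exceeds blue in the mammary and luminal lists, and blue exceeds red in the EMT, Wnt, Notch and several cell type lists.

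Test-only regions in the marker genes of cell types ranged from none in several lists to 2 of 6 neuronal genes and 1 of 2 mast cell and eosinophil genes, against 6.89% of all genes. Of the luminal epithelial markers, 2 of 16 genes held one, Kit and the splicing regulator Esrp1 with 268 and 315 bases, and 0 held a control-only region. The lists of myoepithelial, fibroblast, endothelial, myeloid and T cell markers, with 11, 12, 10, 14 and 10 genes, had 0 genes with a test-only region and 2, 3, 2, 3 and 2 with a control-only one. Markers of adipocytes, keratinocytes and skeletal muscle held neither. Kit was also the only host among the mast cell and eosinophil markers, and Map2 was a host among the neuronal markers. Promoter peaks of these markers were counted in each tumor. Of 22 luminal markers 21 and 20 had a promoter peak in control tumors 1 and 2, and 21 and 20 in test tumors 1 and 2. Of 17 fibroblast markers 6 and 4 had one in control tumors 1 and 2, and 4 and 0 in their test counterparts. The counts were 8, 5, 4 and 0 of 16 endothelial, 12, 5, 7 and 2 of 16 myoepithelial, 14, 13, 12 and 10 of 20 myeloid and 5, 6, 5 and 2 of 19 T cell markers in control tumors 1 and 2 and test tumors 1 and 2. Test tumor 2 had the fewest in each of the last 5 lists, and the part of cell make-up in the test-only regions was not tested. In whole tumors, fewer cells of a type and less acetylation per cell cannot be told apart.

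Components of signaling pathways hosted test-only regions in small numbers, to be read beside the 6.89% of all genes with a test-only and the 13.8% with a control-only region. Of 6 genes on the list of type 2 cytokine receptors and their signal carriers, the kinase Jak1 and the transcription factor Stat3 held 3 test-only regions each and 1 control-only region each. In Jak1 these regions held 889 and 493, 377 and 358, and 196 and 174 bases in test tumors 1 and 2. Peaks covered 10.3% of the Jak1 body in control tumor 1, 3.08% in control tumor 2, 15.1% in test tumor 1 and 11.8% in test tumor 2. In Stat3 the regions held 237 and 253, 333 and 180, and 229 and 815 bases. The Stat3 body was covered over 23.0% and 23.2% in control and over 28.2% and 16.2% in test tumors, so the test tumors lay on either side of the controls. Without the selected bases the test values were 13.8% and 10.9% in Jak1 and 26.8% and 13.9% in Stat3. Besides its 3 test-only regions, Jak1 held 22 intragenic regions and Stat3 held 13. Both thus fall among the genes with 16 or more intragenic regions, of which 27.9% held a test-only and 52.9% a control-only region. Of 9 prolactin and STAT5 genes 0 held a test-only region.

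Of 22 TGF-beta pathway genes, 4 (18.2%) held test-only and 5 (22.7%) held control-only regions. These genes had a median of 10.5 intragenic regions, and among all genes with 8 to 15 such regions 12.6% held a test-only and 29.2% a control-only one. The hosts were the signal carrier Smad3 (167 and 182 bases), the receptors Bmpr1a (421 and 816) and Acvr1 (228 and 201, and 573 and 248), and the ubiquitin ligase Smurf1 (244 and 518). In the Wnt list, with a median of 5 regions a gene, 1 of 25 genes held test-only and 9 control-only regions, and the 1 was the co-receptor Lrp6, with 166 and 498, 369 and 580, and 223 and 399 bases. In the Notch list, with a median of 4, 3 of 19 genes held test-only and 7 control-only regions. These were the coactivators Maml2 (166 and 325 bases) and Maml3 (446 and 1330, and 441 and 380) and the Notch inhibitor Numb (166 and 220). Of 16 retinoic acid genes 2 held regions of each kind, the test-only ones being Dhrs3, a retinaldehyde reductase, with 197 and 195, and 166 and 273 bases, and the nuclear receptor Ppard with 244 and 252 bases. In the ErbB list 1 of 12 genes held each kind, and the test-only host was the adaptor Grb2 with 262 and 191 bases.

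The list of phagocytic actin remodeling had the most hosts, 11 of 50 genes (22%), and 15 genes held a control-only region. Its genes had a median of 7 intragenic regions each, and among all genes with 4 to 7 such regions 7.78% held a test-only and 16.8% a control-only region. Many genes of the list held more regions than the median, with 591 regions in the 50 genes, and among all genes with 16 or more regions the shares were 27.9% and 52.9%. The hosts were Elmo1, Actr3, Grb2, the Rac effectors Abi1 (556 and 161 bases) and Baiap2 (187 and 192), the kinases Pak1 (396 and 175) and Prkcd (594 and 174), the phospholipase Plcg2 (166 and 486), and the 3 calcium release channels Itpr1 (219 and 161), Itpr2 (242 and 161) and Itpr3 (293 and 213). Apart from Elmo1 and Actr3, none of these regions had 500 or more bases in both tumors.

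The test-only regions were close to other intragenic regions in base composition, and fewer of them held the AP-1 motif. Median GC content of the central 300 bp was 46.3% in test-only, 47.3% in control-only and 48.0% in shared regions. AP-1 (TGANTCA, a palindrome but for its central base, read on both strands) was present in 6.62% of test-only regions, 8.27% of control-only, 12.6% of shared and 10.4% of all 44944 intragenic regions. Within a GC content of 40 to 50% the values were 8.70%, 8.66% and 13.5% in the same order. Both group-specific classes were thus below shared regions. The STAT motif was present in 9.93%, 9.63% and 10.0% of test-only, control-only and shared regions. A half-site of nuclear factor I (TGCCAA) was present in 16.7%, 20.9% and 21.2%. The KLF/SP motif (GGGCGG) was present in 5.24% of test-only, 4.79% of control-only, 8.77% of shared and 6.02% of all intragenic regions. The steroid receptor motif (ACANNNTGT) was present in 12% of test-only, 9.57% of control-only and 10.0% of shared regions. For the others the test-only, control-only and shared shares follow in that order. The SOX motif (ACAAAG) was held by 29.7%, 26.2% and 29.5% of regions, the ETS motif (GGAAGT) by 22.8%, 19.98% and 23.1%, and the RUNX motif (TGTGGT) by 19.2%, 22.3% and 21.5%. The E-box of the repressor ZEB (CAGGTG) was held by 23.4%, 19.5% and 22.3% and the other E-box (CAGCTG) by 19.03%, 17.2% and 18.5%. The half-site of nuclear receptors (AGGTCA) was held by 19.4%, 18.6% and 19.5%, and the core of the insulator protein CTCF (AGGNGGC) by 19.9%, 17.9% and 19.9%. The TEAD motif (CATTCC) was held by 17.1%, 17.97% and 17.2%, the motif of GATA factors (AGATAA) by 14.1%, 13.9% and 11.97%, and that of CEBP factors (TTGCNNAA) by 12.97%, 12.9% and 13.5%. The TFAP2 motif (GCCNNNGGC) was held by 9.79%, 11.6% and 11.6% and the FOX motif (TGTTTAC) by 4.69%, 3.61% and 4.92%. The rarest was the motif of the epithelial GRHL factors (AACCNGGTT), in 0.276%, 0.236% and 0.325%. All 18 were searched on both strands, they can overlap one another, and a match to so short a string is not a binding site.

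**Figure D5:**
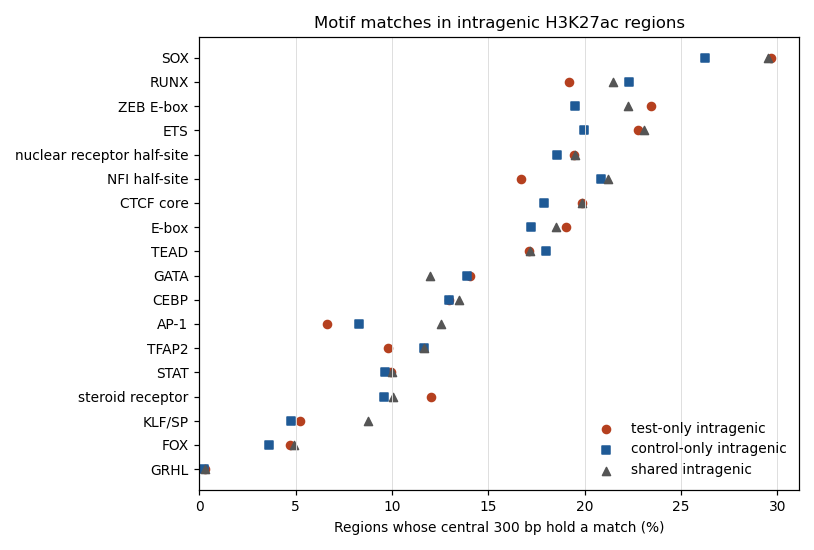
For each of the 18 motifs, the percent of regions whose central 300 bp hold at least 1 match is plotted for test-only (circles), control-only (squares) and shared (triangles) intragenic regions. The widest gap between test-only and shared regions is that of AP-1, at 6.62% and 12.6%.

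The regions were spread over all 19 autosomes. The test-only share of a chromosome's intragenic regions ran from 0.844% on chromosome 16 to 2.22% on chromosome 6.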

How the data were processed

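H3K27ac ChIP-seq peak lists of 4 tumors, 2 control and 2 test, were used as deposited, and 4 input libraries were left aside. Reads had been aligned by the authors with BWA to mm10, and MACS2 had called the peaks of each tumor against its own input. The deposited lists give intervals and peak names in base pairs, with no score or read count, so depth is unknown and width rather than strength was measured. Neighboring intervals were at least 201 bp apart. What was removed in cleaning the lists is not given in the sources used here.

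Intervals of the 4 tumors that overlapped or touched were joined, and presence required 1 bp of overlap. Genes were the 20807 autosomal protein-coding genes of GENCODE M21, and GRCm38.p6 gave the sequences. The members, the 21 gene lists, the 18 motifs and the naming rules were chosen with earlier results of these data known. Named were the 10 widest regions by mean test bases, the 6 genes with most regions, all hosts on a list, hosts with a test-only promoter, the 3 regions nearest either side of the selection limit and the 5 widest at another transcript start; Auts2 and Itprid1 rank next by region number. One host on a list is not reported here. The region finder was tested on simulated peaks. Python 3.11.15, numpy 2.4.6, scipy 1.17.1, pysam 0.24.0 and samtools 1.23.1 were used. Groups followed the genotype per the labels, and tumor numbers only name a tumor.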

Additional observations from a re-analysis of the deposited data

How the results depend on the processing

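The number of test-only intragenic regions and of their hosts stayed within 1.5 times of 725 and 623 when each tumor was cut to as many of its widest peaks as the shortest list held, when all protein-coding transcript starts or a promoter of 2.5 kb were excluded, and when regions had to lie wholly in the gene. The same held for 2 settings chosen after seeing the data, exclusion of starts of any gene type and hosts up to 1 Mb. With peaks of at least 1 kb, which drops narrower control peaks as well, there were 285 regions in 274 genes, with a median width of 1549 bp and 61.8% in introns alone, and 0 of the 92 regions named by the rules remained. Joining peaks within 1 kb left 444 regions with a median of 634.5 bp and 35 of the 92. Without a control peak within 1 kb, 430 regions in 388 genes and 42 of the 92 were left. Where the peaks of each test tumor had to cover 50% or more of the region there were 454 in 414 genes, with a median of 336.5 bp and 50 of the 92. The equal lists gave a median of 454.5 bp.

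Leaving out 1 tumor drops 1 condition and so adds regions: between 1516 and 5597 regions in between 1213 and 3243 genes, with a median width from 218 to 489 bp, 76.9 to 84.2% in introns alone and 28.4 to 43.2 kb to the host start. A region of the reduced group then needed a peak in 1 tumor, and a region of the other group needed a peak in both. The counts of the groups, such as 5597 test-only and 2460 control-only regions without test tumor 2, therefore cannot be compared. In the settings that kept all tumors, control-only regions, filtered in the same way, outnumbered test-only ones. The excess narrowed to 1141 against 870 with equal lists and to 387 against 285 with peaks of at least 1 kb, from 1692 against 725. The flanking difference was 1.16 percentage points at 50 kb. Of the AP-1 motif, windows of 200 bp held 4.83% in test-only, 5.67% in control-only and 8.56% in shared regions. No paired analysis was possible because the labels give no replicate numbers and the tumors were numbered in order of deposit. Depth is unknown, so a region without a control peak may have had acetylation below the caller's threshold.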

Other observations

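The X chromosome was outside the selection. Of its 759 intragenic regions 12 (1.58%) were test-only and 24 (3.16%) control-only, values close to the 1.61% and 3.76% of the autosomes. The 12 lay in 12 genes, among them Dmd, Gpm6b and Shroom2, named after their values were seen.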
